A study of Mus musculus with 20 samples.

Results

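The G2 and mitosis genes are 51 genes of the machinery that carries a cell from the end of DNA replication through chromosome segregation and division. They were chosen by gene symbol, with earlier results of these data known. All 51 were present in both deposited count tables, among the 11296 genes that the tables share. Transcripts had been sequenced from viable EpCAM+ epithelial cells of small-intestinal crypts, sorted free of CD45+, CD31+ and TER119+ cells. The donors were C57BL/6J mice aged 8 weeks that all carried an Lgr5-GFP reporter, whose signal is strongest in crypt stem cells. The 4 groups of 5 libraries were Itgb7-/- (KO) GFP-low cells, Itgb7+/+ (WT) GFP-low cells, KO GFP-high cells and WT GFP-high cells. GFP-high cells were labelled stem cells and GFP-low cells transit-amplifying (TA) cells. Itgb7 encodes the integrin beta 7 subunit, which lymphocytes use to home to and stay in the gut. The labels give KO as the genotype of the mice and name no promoter or cell type to which the deletion is limited. Libraries were numbered 2, 3, 4, 5 and 6 in KO and 1, 3, 6, 7 and 8 in WT, in both populations. The numbers are taken as mouse numbers. The labels do not say so outright, so p-values measure the spread between these libraries.

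Entry into mitosis depends on Cdk1 bound to cyclin A or B, released from inhibition by Cdc25 phosphatases and helped by Polo-like and Aurora kinases. Chromosomes are then condensed, attached through kinetochores to a spindle moved by kinesins, held by a checkpoint until every kinetochore is attached, and separated once the anaphase-promoting complex (APC/C) marks cyclin B and securin for destruction. Most of these genes are transcribed late in the cell cycle under the DREAM, B-Myb and FoxM1 complexes, which act through the CHR element (TTTGAA, or TTCGAA in some genes). Their promoters often hold paired CCAAT boxes as well, a separate element. In the crypt, stem cells and their TA daughters both divide, while Paneth, goblet, enteroendocrine, tuft and absorptive cells have left the cycle.

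Promoters are shown because the genes moved as a group, and because they let the few exceptions be set beside the rest. RefSeq promoters of build GRCm38.p6, the assembly also called mm10, were matched for 43 of the 51 genes, with 48 sequences of 300 bases. TTTGAA, searched on both strands over the whole 300 bases, was found in 66.7% of the members' sequences, against 17.9% of all 32851 promoters. TTCGAA was found in 10.4%, against 1.56% of all promoters. CCAAT was found in 79.2%, against 37.4%. At least 2 CCAAT copies were present in 56.3%, against 11.7%. Among the 11883 promoters of genes in the count tables, the shares were 12.2% for TTTGAA and 2.09% for TTCGAA. They were 38.5% for CCAAT and 14.5% for at least 2 copies. TTCGAA reads the same on both strands and was counted once, and no CHR match overlapped a CCAAT match in the windows printed. The lines below run 5′ to 3′ along the gene's strand and end at the base before the annotated start, except that of Psrc1, which ends 20 bases earlier because another start lies there. Capitals mark CHR letters (TTTGAA or TTCGAA, or TTCAAA on the other strand) and CCAAT boxes (ATTGG on the other strand). Psrc1 (chr3:108383718-108383817, plus strand) was among the genes with the strongest fall in GFP-low cells, and Hmgb2 (chr8:57511723-57511842, plus strand), Ube2c (chr2:164769809-164769928, plus strand) and Kif11 (chr19:37376262-37376381, plus strand) fell in both genotypes. Cdk1 (chr10:69352913-69353032, minus strand) is the central kinase. Cdc20 (chr4:118437344-118437463, minus strand) did not pass in either genotype.
Psrc1: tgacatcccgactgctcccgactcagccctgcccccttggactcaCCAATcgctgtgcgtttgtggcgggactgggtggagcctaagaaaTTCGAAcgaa
Hmgb2: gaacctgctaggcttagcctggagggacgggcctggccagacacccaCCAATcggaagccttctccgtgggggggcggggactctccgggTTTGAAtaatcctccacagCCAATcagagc
Ube2c: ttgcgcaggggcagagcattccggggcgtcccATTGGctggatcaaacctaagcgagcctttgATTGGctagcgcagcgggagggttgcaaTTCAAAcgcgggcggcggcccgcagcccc
Kif11: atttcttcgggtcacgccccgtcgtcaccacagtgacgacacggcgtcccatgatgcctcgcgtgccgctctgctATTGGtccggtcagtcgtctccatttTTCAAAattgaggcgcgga
Cdk1: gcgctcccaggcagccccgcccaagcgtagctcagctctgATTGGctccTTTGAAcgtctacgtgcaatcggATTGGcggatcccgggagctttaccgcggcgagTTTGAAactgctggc
Cdc20: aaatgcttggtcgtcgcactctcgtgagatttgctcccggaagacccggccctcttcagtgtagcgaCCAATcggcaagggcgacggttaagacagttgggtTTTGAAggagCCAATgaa
Cdc20 holds TTTGAA 18 bases before its start between CCAAT boxes at 53 and 8 bases, letters also found in the printed genes that fell. Of the 43 matched genes, 6 had neither CHR letters nor CCAAT within the 300 bases. These were Birc5, G2e3, Nuf2, Nusap1, Sapcd2 and Tacc3. In fits without a block by mouse, Nuf2, Nusap1 and Sapcd2 fell in both genotypes. G2e3 and Tacc3 fell in KO mice only, and Birc5 passed in neither genotype. With the block, Birc5 and Tacc3 fell in both genotypes. Cenpa, which passed in neither without the block, held 1 TTTGAA and 2 CCAAT. A match describes the letters in the window and is not a measured binding site.

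Library totals ran from 20900404 to 27838392 counts. Levels are given as counts per 1000000 counts of a library (CPM), scaled by trimmed mean of M-values (TMM) factors over all 20 libraries. Itgb7 was in neither table, so the genotype labels were not checked against it. Lgr5, the receptor that drives the reporter, averaged 6.997 ± 2.38 CPM in KO GFP-low cells, against 105 ± 11.2 CPM in KO GFP-high cells (SD, n = 5 each), and 12.9 ± 6.71 CPM in WT GFP-low cells, against 102 ± 19.98 CPM in WT GFP-high cells. All 18 listed stem cell markers fell in GFP-low cells of both genotypes, and all 15 Paneth, all 12 goblet and all 11 enteroendocrine markers tested rose. In bulk RNA, fewer dividing cells and less mitotic RNA per dividing cell cannot be told apart, and this holds for every result below. The WT GFP-low libraries of mice 3 and 8 stood apart, with 7.32% and 6.84% of counts on the Paneth defensin Defa24, and counts, medians and calls between populations in WT mice that change without them are also given without them.

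**Figure D1:**
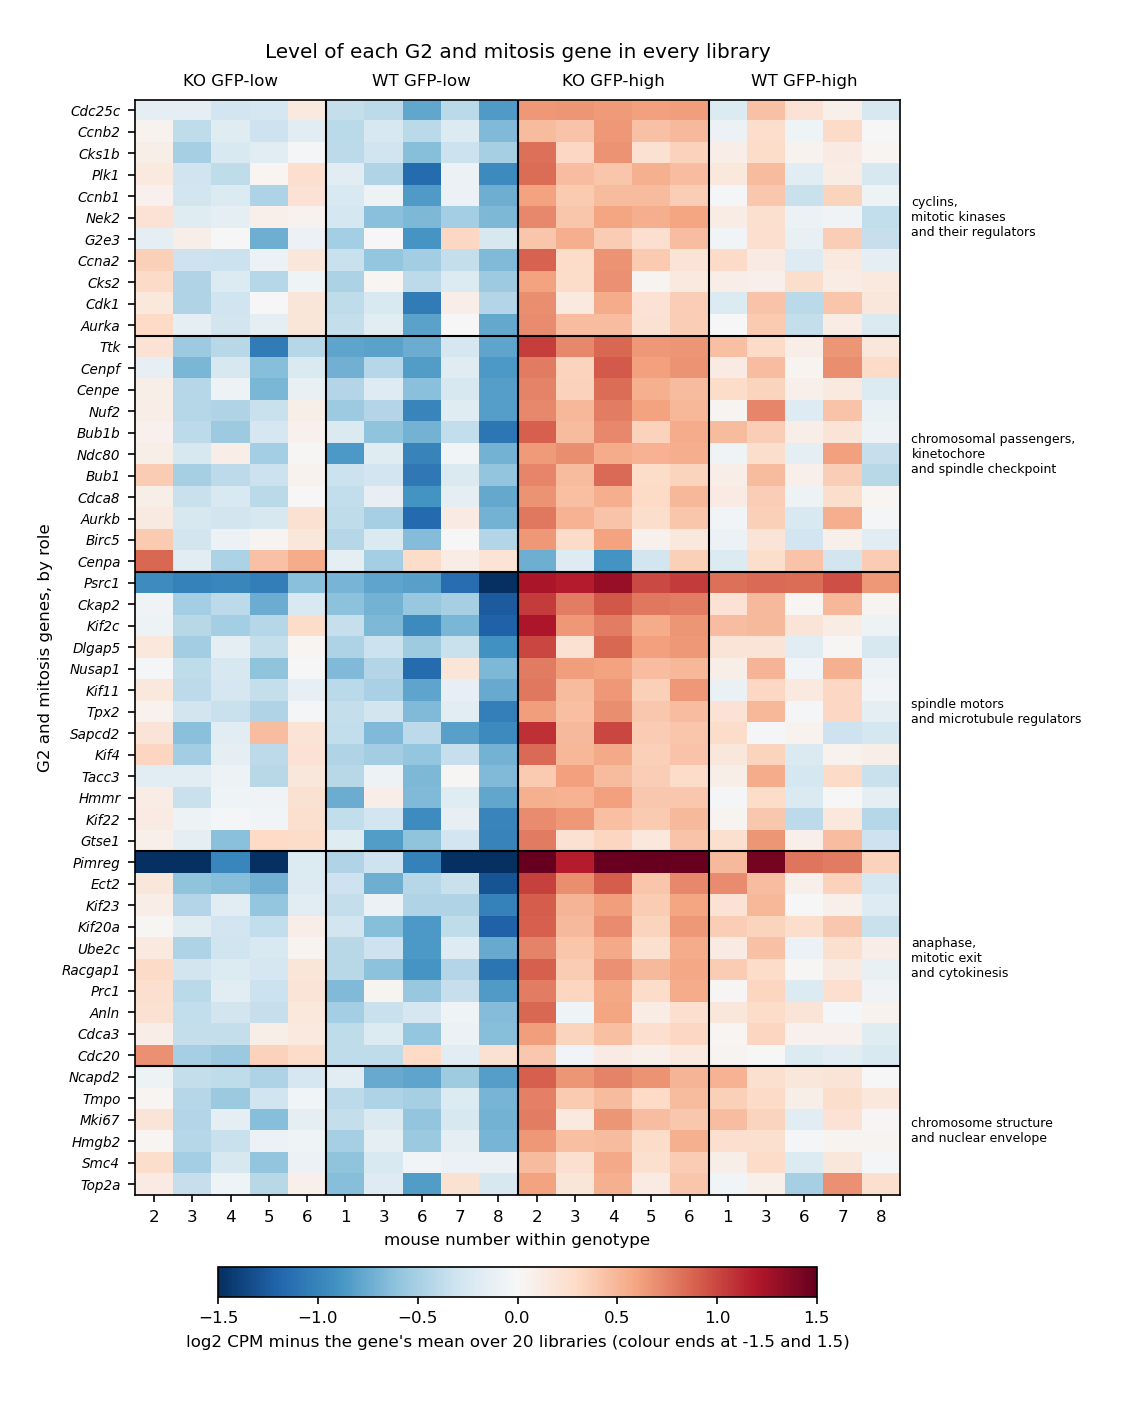
Each row is 1 of the 51 G2 and mitosis genes, grouped by role, and each column 1 of the 20 libraries; colour is log2 CPM minus the gene's mean over all libraries. Rows are mostly red in KO GFP-high libraries and mostly blue in GFP-low libraries, and the rows of Cenpa and Cdc20 do not follow the others.

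Summed over the 51 genes, the level was 3463 ± 552 CPM in KO GFP-low cells, against 5212 ± 516 CPM in KO GFP-high cells (mean ± SD, n = 5 each). In WT mice it was 2824 ± 423 CPM in GFP-low cells, against 4081 ± 470 CPM in GFP-high cells. Per kilobase of annotated exon, the mean level over all libraries ran from 1.75 CPM per kb for Anln, an actin-bundling protein of the cleavage furrow, to 145 CPM per kb for Cks2, a small cyclin-dependent kinase subunit. Cdca3, Ube2c, Cks1b and Ccnb2 followed Cks2 with 117, 82.5, 81.3 and 78.9 CPM per kb. Within a group the genes moved together by library: 51 of 51 lay above their group mean in the KO GFP-low library of mouse 6 and 1 of 51 in that of mouse 3. In KO GFP-high cells, 48 of 51 lay above it in mouse 2 and 3 of 51 in mouse 5. In WT GFP-low cells, 47 lay above in mouse 7 and 5 in mouse 8, and in WT GFP-high cells 48 in mouse 3 and 5 in mouse 8. Of all genes, 49.5% to 55.7% lay above the group mean in a library.

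GFP-low against GFP-high cells is the step from stem cells to TA cells as the labels name it. G2 and mitosis genes were lower in GFP-low cells almost throughout. In KO mice 47 of 51 genes fell at an adjusted p under 0.05 by edgeR's quasi-likelihood test with Benjamini-Hochberg adjustment over all genes, where 24.4% of 11294 genes were called lower. In WT mice 39 of 51 fell, where 21.4% of 11293 genes were called lower. None of the 51 rose in either genotype in these fits. The median log2 fold change was -0.64 in KO and -0.58 in WT mice, against -0.01 for all genes tested in each genotype. Every GFP-low library lay below every GFP-high library for 37 genes in KO mice (17.3% of all genes) and for 26 in WT mice (13.8% of all genes). In these fits, which had no block by mouse, 38 genes fell in both genotypes, 9 were called in KO only, 1 in WT only and 3 in neither.

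Read mouse by mouse, 47 to 51 of the 51 genes were lower in the GFP-low than in the GFP-high library of the same animal. In all 10 mice, 44 genes were lower. The remaining 7 included 5 genes lower in 9 mice, Cdc20 lower in 4 mice and Cenpa lower in 3. With the mouse as a block in the fit, 49 genes fell and 1 rose in KO mice (27.9% of all genes called lower, 29.3% higher), and 47 fell in WT mice (25.9% lower). All 47 were among the 49 of KO mice, and G2e3 and Smc4 fell in KO mice only. Most calls made in KO only without the block were thus made in both genotypes with it. Scaling by library totals alone, without TMM factors, gave medians of -0.90 in KO and -0.94 in WT mice, where the median over all genes was -0.27 and -0.37. On that scale 49 of 51 genes fell in each genotype, Cdc20 and Cenpa being those that did not pass. Of all genes, 6516 of 11294 in KO and 6083 of 11293 in WT mice passed on that scale, both directions counted together.

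**Figure D2:**
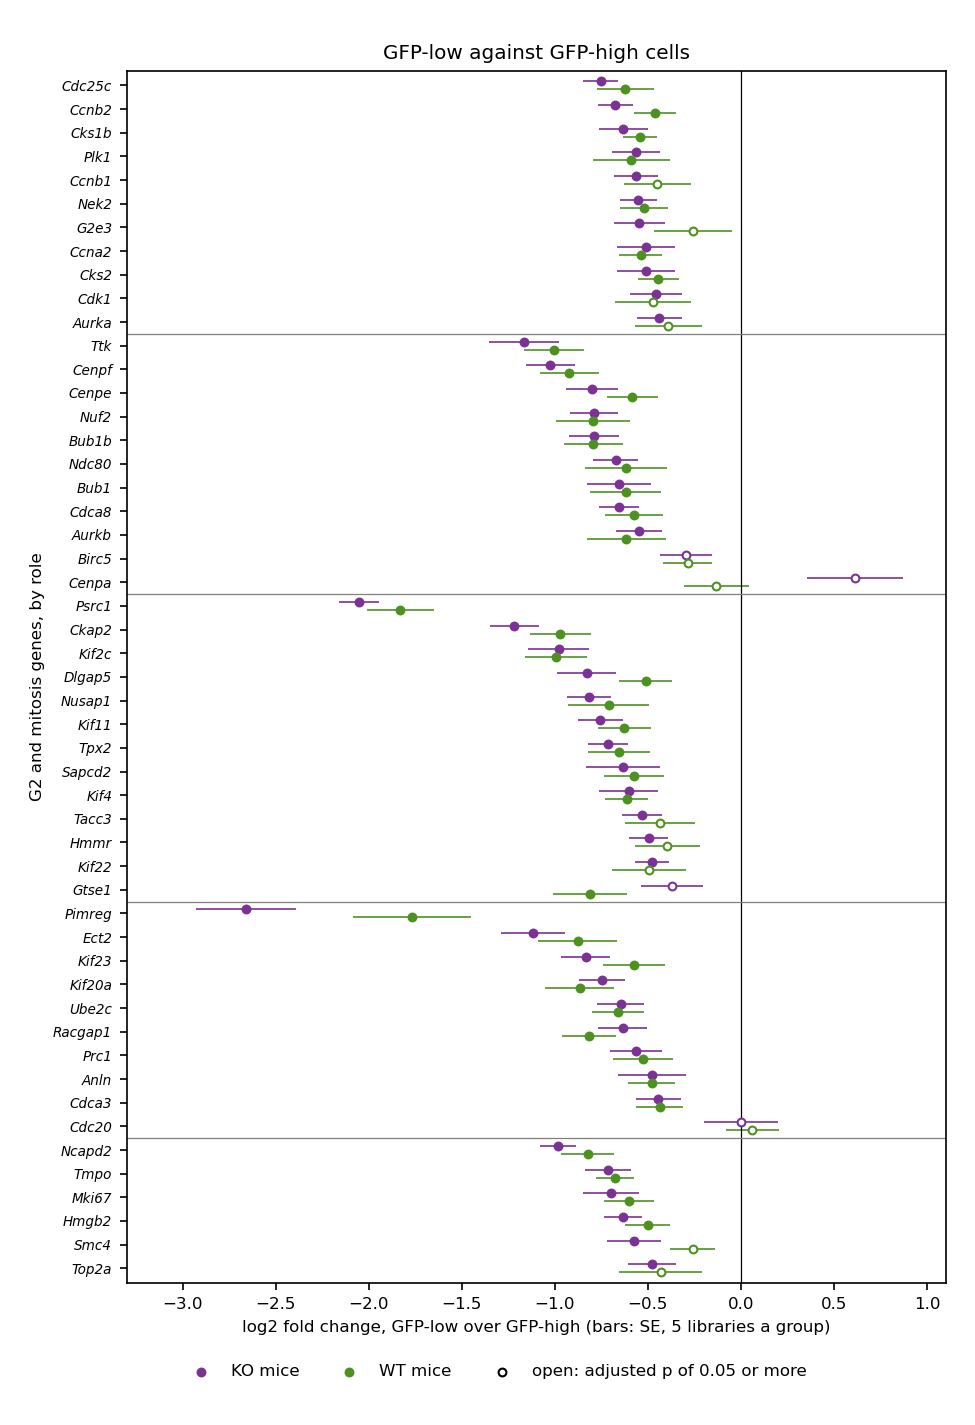
Points are log2 fold changes of GFP-low over GFP-high cells for each of the 51 genes, in KO mice (purple, upper point) and WT mice (green, lower point), with SE bars from 5 libraries a group; open points did not pass. Psrc1 and Pimreg lie farthest left at -2.05 and -2.66 in KO mice, and Cdc20 lies at 0 in KO mice.

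Among cyclins, mitotic kinases and their regulators, 11 of 11 fell in KO mice (median -0.55) and 7 of 11 in WT mice (median -0.47). Ccnb1, the B-type cyclin that activates Cdk1 at mitotic entry, had 146, 116, 122, 102 and 163 CPM in GFP-low cells of KO mice 2 to 6, against 212, 184, 194, 195 and 181 CPM in GFP-high cells. In WT mice 1, 3, 6, 7 and 8 it had 119, 133, 77.6, 132 and 84.3 CPM in GFP-low cells, against 139, 186, 111, 177 and 133 CPM in GFP-high cells. The KO groups did not overlap and the WT groups did. The log2 fold change was -0.56 ± 0.12 (SE) in KO (adjusted p = 0.00128, edgeR) and -0.45 ± 0.18 in WT (adjusted p = 0.0618). With the mouse as a block the WT fall passed (adjusted p = 0.000975).

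Its partner gene Ccnb2, another B-type cyclin, had 122, 89.98, 103, 94.4 and 104 CPM in KO GFP-low cells, against 163, 158, 184, 159 and 164 CPM in KO GFP-high cells. In WT mice Ccnb2 had 88.8, 98.9, 88.7, 102 and 74.3 CPM in GFP-low cells, against 110.0, 140.4, 112, 143 and 117 CPM in GFP-high cells. Neither pair of groups overlapped, and Ccnb2 fell by 0.67 ± 0.09 in KO and by 0.46 ± 0.11 in WT mice on the log2 scale (adjusted p = 4.34e-05 and 0.00558, edgeR). Cdc25c, the phosphatase that switches Cdk1 on, had 26.5, 26.3, 23.8, 24.2 and 32.1 CPM in KO GFP-low cells, against 45.5, 46.00, 45.2, 44.5 and 44.9 CPM in KO GFP-high cells. In WT mice Cdc25c had 22.6, 22.1, 16.9, 21.9 and 16.1 CPM in GFP-low cells, against 25.2, 39.4, 33.7, 30.7 and 24.5 CPM in GFP-high cells. The KO GFP-high libraries lay close together, and again no groups overlapped. Cdc25c fell by 0.75 ± 0.09 and 0.62 ± 0.15 on the log2 scale (adjusted p = 1.96e-05 and 0.00602, edgeR). Cdk1 itself fell in KO mice (-0.46 ± 0.14). Its WT value was -0.47 ± 0.21, which passed with the block, as did those of the kinase Aurka and of Ccnb1. G2e3, a ubiquitin ligase, fell in KO and did not pass in WT mice in either fit.

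Of the chromosomal passenger, kinetochore and spindle checkpoint genes, 9 of 11 fell in KO mice (median -0.67) and 9 of 11 in WT mice (median -0.62). Cenpf, a large kinetochore protein that accumulates in G2, had 109, 73.8, 101, 76.3 and 102 CPM in KO GFP-low cells, against 203, 149.7, 225, 181 and 189 CPM in KO GFP-high cells. In WT mice Cenpf had 72.3, 88.02, 66.6, 105 and 65.3 CPM in GFP-low cells, against 129.6, 163, 122, 193 and 145 CPM in GFP-high cells. All GFP-low libraries lay below all GFP-high libraries of their genotype, with falls of 1.02 ± 0.13 in KO and 0.92 ± 0.16 in WT mice on the log2 scale (adjusted p = 2.85e-05 and 0.000586, edgeR). Nuf2, a subunit of the Ndc80 complex that grips microtubules, had 19.99, 13.97, 13.7, 14.9 and 19.8 CPM in KO GFP-low cells, against 30.9, 26.4, 31.9, 28.4 and 26.5 CPM in KO GFP-high cells. Its WT values were 12.8, 13.8, 9.44, 16.5 and 10.6 CPM in GFP-low cells, against 19.3, 31.1, 16.4, 25.2 and 17.5 CPM in GFP-high cells. The KO groups were separate, while the lowest WT GFP-high library, that of mouse 6, lay at the level of the highest WT GFP-low library, that of mouse 7. Nuf2 fell by 0.79 ± 0.13 and 0.80 ± 0.20 (adjusted p = 0.000176 and 0.00668, edgeR).

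Cdca8 (borealin), a passenger protein that helps place the Aurora B kinase, was the most abundant of this role group by CPM. It had 203, 151, 163, 145 and 190.2 CPM in KO GFP-low cells, against 306, 262, 279.7, 236 and 269 CPM in KO GFP-high cells. WT mice had 148, 176, 102, 173 and 112 CPM of Cdca8 in GFP-low cells, against 209, 247, 181, 229 and 195 CPM in GFP-high cells. No groups overlapped, and Cdca8 fell by 0.65 ± 0.11 and 0.57 ± 0.16 (adjusted p = 0.0002 and 0.0105, edgeR). The checkpoint kinase gene Ttk had the largest fall of the role group, -1.17 ± 0.19 in KO and -1.003 ± 0.16 in WT mice.

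Birc5 and Cenpa were the exceptions. Birc5 (survivin), another passenger protein, had 169.9, 107, 122, 134 and 146 CPM in KO GFP-low cells, against 204, 159, 197, 135 and 145 CPM in KO GFP-high cells. WT mice had 96.6, 112, 82.5, 130.2 and 95.7 CPM of Birc5 in GFP-low cells, against 122, 149, 107, 137 and 115 CPM in GFP-high cells. Both pairs of groups overlapped, and the log2 fold changes of -0.29 ± 0.14 in KO and -0.29 ± 0.13 in WT mice did not pass (adjusted p = 0.094 and 0.096, edgeR). With the mouse as a block both passed (adjusted p = 0.033 and 0.00967). Scaled by library totals alone both passed as well, at -0.54 in KO and -0.65 in WT mice (adjusted p = 0.00725 and 0.00356, edgeR).

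Cenpa, the histone H3 variant that marks centromeres, had 226, 111, 90.2, 169.6 and 184 CPM in KO GFP-low cells, against 75.1, 109, 67.2, 103 and 160.2 CPM in KO GFP-high cells. In each of the 5 KO mice the GFP-low value was the higher. WT mice had 114, 87.9, 151, 135 and 144 CPM of Cenpa in GFP-low cells, against 108, 151, 168, 103 and 163 CPM in GFP-high cells, with 3 mice lower and 2 higher. The log2 fold change was 0.61 ± 0.26 in KO (adjusted p = 0.062, edgeR) and -0.13 ± 0.17 in WT mice (adjusted p = 0.562). With the mouse as a block Cenpa rose in KO mice by 0.60 ± 0.18 (adjusted p = 0.0115), and it did not pass in WT mice. The KO value was 0.36 when scaled by library totals alone (adjusted p = 0.251).

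Spindle motors and microtubule regulators fell in 12 of 13 cases in KO mice (median -0.72) and in 10 of 13 in WT mice (median -0.63). Psrc1, a proline-rich microtubule-binding protein of the spindle, had 15.4, 14.7, 14.99, 14.3 and 19.2 CPM in KO GFP-low cells, against 69.3, 66.9, 72.9, 58.6 and 60.8 CPM in KO GFP-high cells. WT mice had 18.2, 17.02, 16.8, 13.4 and 8.27 CPM of Psrc1 in GFP-low cells, against 52.2, 53.2, 52.7, 57.8 and 46.3 CPM in GFP-high cells. The gap between the populations was far wider than the spread within any group. Psrc1 fell by 2.05 ± 0.11 in KO and by 1.83 ± 0.18 in WT mice on the log2 scale (adjusted p = 2.14e-08 and 9.49e-06, edgeR), the largest fall of the 51 in WT mice and, after Pimreg, in KO mice.

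Ckap2, which stabilises spindle microtubules, had 11.2, 8.11, 8.86, 6.89 and 9.92 CPM in KO GFP-low cells, against 23.97, 19.7, 22.04, 20.05 and 19.8 CPM in KO GFP-high cells. WT mice had 7.57, 7.08, 7.80, 8.18 and 4.89 CPM of Ckap2 in GFP-low cells, against 13.4, 16.2, 11.8, 16.4 and 11.9 CPM in GFP-high cells. These groups did not overlap, and Ckap2 fell by 1.22 ± 0.13 and 0.97 ± 0.16 (adjusted p = 5.94e-06 and 0.000538, edgeR). Tacc3, which crosslinks spindle microtubules, had 66.7, 67.03, 70.7, 56.02 and 83.6 CPM in KO GFP-low cells, against 97.7, 114, 103, 96.5 and 90.4 CPM in KO GFP-high cells. WT mice had 56.1, 70.8, 46.8, 75.3 and 47.2 CPM of Tacc3 in GFP-low cells, against 79.2, 109, 61.98, 90.98 and 59.3 CPM in GFP-high cells, and the WT groups overlapped. Tacc3 fell in KO (-0.53 ± 0.11, adjusted p = 0.00102, edgeR) and did not pass in WT mice (-0.44 ± 0.19, adjusted p = 0.0763), where it passed with the block (adjusted p = 0.00144). Hmmr and Kif22 had the same pattern of calls. Gtse1, which binds microtubules and p53, was the only gene called in WT and not in KO mice without the block (-0.37 ± 0.17 in KO, -0.81 ± 0.20 in WT). It passed in KO mice with the block (adjusted p = 0.0319). Kif2c, a kinesin that takes microtubules apart, fell by 0.98 ± 0.16 in KO and 0.995 ± 0.17 in WT mice.

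For anaphase, mitotic exit and cytokinesis, 9 of 10 genes fell in each genotype (median -0.64 in KO and -0.62 in WT mice). Pimreg, a nuclear protein of the metaphase-to-anaphase step, had 2.06, 1.65, 2.99, 1.92 and 5.11 CPM in KO GFP-low cells, against 18.3, 13.4, 16.5, 18.7 and 20.9 CPM in KO GFP-high cells. WT mice had 4.33, 4.76, 2.93, 1.51 and 1.81 CPM of Pimreg in GFP-low cells, against 8.26, 15.97, 10.3, 10.1 and 7.49 CPM in GFP-high cells. No groups overlapped, and over all libraries Pimreg had the lowest mean CPM of the 51. Pimreg fell by 2.66 ± 0.27 in KO and by 1.77 ± 0.32 in WT mice on the log2 scale (adjusted p = 2.89e-06 and 0.000785, edgeR).

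Ect2, the exchange factor that activates RhoA at the cleavage furrow, had 15.7, 9.25, 9.01, 8.495 and 12.1 CPM in KO GFP-low cells, against 28.6, 22.8, 26.3, 18.7 and 23.2 CPM in KO GFP-high cells. WT mice had 11.3, 8.42, 10.4, 11.1 and 5.73 CPM of Ect2 in GFP-low cells, against 22.99, 19.3, 14.8, 17.8 and 11.8 CPM in GFP-high cells. The WT groups were separated only narrowly, by the GFP-high library of mouse 8 and the GFP-low library of mouse 1. Ect2 fell by 1.12 ± 0.17 and 0.88 ± 0.21 (adjusted p = 0.000122 and 0.00514, edgeR). Cdca3, which promotes mitotic entry by helping to degrade Wee1, had 350.2, 256, 255, 346 and 363 CPM in KO GFP-low cells, against 505, 411, 445, 388 and 406 CPM in KO GFP-high cells. WT mice had 249.9, 283, 219, 306 and 210.0 CPM of Cdca3 in GFP-low cells, against 334, 407, 342, 342 and 289 CPM in GFP-high cells. The KO groups were separate and the WT groups overlapped. It was the most abundant of the 51 genes by CPM and fell by 0.44 ± 0.12 and 0.44 ± 0.13 (adjusted p = 0.00703 and 0.0143, edgeR).

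Cdc20, the activator of the APC/C at anaphase onset, did not pass between the populations in either genotype. It had 138, 60.9, 58.6, 109 and 104 CPM in KO GFP-low cells, against 113, 83.3, 93.5, 90.5 and 94.8 CPM in KO GFP-high cells. WT mice had 65.7, 65.8, 106, 77.2 and 100.2 CPM of Cdc20 in GFP-low cells, against 88.5, 85.6, 74.5, 76.3 and 73.3 CPM in GFP-high cells. In KO mice 2 of 5 and in WT mice 2 of 5 were lower in GFP-low cells, and the GFP-low libraries were spread more widely than the GFP-high libraries. Its log2 fold change was -0.00 ± 0.20 in KO mice (95% interval -0.39 to 0.39) and 0.06 ± 0.14 in WT mice (95% interval -0.22 to 0.34), with adjusted p values of 0.999 and 0.758 by edgeR. The intervals use a normal approximation, which is too narrow with 5 libraries a group. Scaled by library totals alone the log2 fold changes were -0.25 and -0.29, neither past the threshold. Ube2c, the APC/C's ubiquitin-conjugating enzyme, fell by 0.65 ± 0.12 in KO and 0.66 ± 0.14 in WT mice.

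In the last role group, chromosome structure and nuclear envelope, 6 of 6 fell in KO mice (median -0.67) and 4 of 6 in WT mice (median -0.55). Ncapd2, a condensin I subunit, had 66.02, 54.4, 53.7, 50.6 and 58.6 CPM in KO GFP-low cells, against 129, 110.4, 116, 111 and 98.7 CPM in KO GFP-high cells. WT mice had 62.4, 41.2, 40.1, 48.1 and 39.1 CPM of Ncapd2 in GFP-low cells, against 99.9, 82.1, 78.03, 79.7 and 69.3 CPM in GFP-high cells. Groups were separate in both genotypes, with falls of 0.98 ± 0.10 and 0.82 ± 0.14 (adjusted p = 2.22e-06 and 0.000606, edgeR). Hmgb2, a DNA-bending chromatin protein, had 215, 157, 167, 199 and 202 CPM in KO GFP-low cells, against 331, 289, 293, 255 and 305 CPM in KO GFP-high cells. WT mice had 150.1, 192, 144, 192 and 131 CPM of Hmgb2 in GFP-low cells, against 253, 249.6, 209, 217 and 218 CPM in GFP-high cells. Groups were again separate, and Hmgb2 fell by 0.63 ± 0.10 and 0.50 ± 0.12 (adjusted p = 0.000167 and 0.00551, edgeR).

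Smc4, the core ATPase of condensins, had 99.8, 57.96, 70.3, 54.9 and 78.1 CPM in KO GFP-low cells, against 115, 98.05, 123, 97.7 and 108 CPM in KO GFP-high cells. WT mice had 54.6, 70.6, 80.7, 77.98 and 78.1 CPM of Smc4 in GFP-low cells, against 87.7, 100, 72.1, 92.8 and 80.9 CPM in GFP-high cells. Both pairs of groups overlapped, the KO pair by mouse 2 alone. Smc4 fell in KO mice (-0.57 ± 0.15, adjusted p = 0.00479, edgeR) and did not pass in WT mice (-0.26 ± 0.12, adjusted p = 0.105). Scaled by library totals alone the WT value was -0.62 and passed (adjusted p = 0.00406, edgeR). The proliferation marker Mki67 fell by 0.70 ± 0.15 and 0.60 ± 0.14. The topoisomerase gene Top2a fell in KO mice by 0.48 ± 0.13 and passed in WT mice with the block (-0.43 ± 0.22 without it).

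Markers of differentiated cells moved with these falls. Summed Paneth cell markers (15 of 15 measured) ran from 27151 to 136875 CPM in KO GFP-low libraries, against 19622 to 49434 CPM in KO GFP-high libraries. In WT mice they ran from 65900.2 to 287393 CPM in GFP-low libraries, against 16508 to 65186 CPM in GFP-high libraries. Summed goblet cell markers (12 of 12 measured) ran from 26269 to 57508 CPM in KO GFP-low libraries, against 2595 to 4925 CPM in KO GFP-high libraries. In WT mice they ran from 31339.9 to 78091 CPM in GFP-low libraries, against 2466 to 6229 CPM in GFP-high libraries. Their part in the lower mitotic levels was not tested. Leaving Paneth, goblet, enterocyte, enteroendocrine and tuft markers out of the scaling gave 47 falls in KO and 39 in WT mice. There 5708 of 11294 genes in KO and 4873 of 11293 in WT mice passed in either direction. Without the WT GFP-low libraries of mice 3 and 8, 33 of 51 genes fell in WT mice and the median was -0.55. Of all genes, 3637 of 11296 passed without these libraries, in either direction. The 7 WT calls lost were those of Plk1, Aurkb, Bub1, Ndc80, Nusap1, Sapcd2 and Anln, at values of -0.67 to -0.40 (adjusted p = 0.0534 to 0.147, edgeR). Hmmr passed without these libraries (-0.49, adjusted p = 0.0365, edgeR). Mitochondrially encoded transcripts, read as a sign of RNA quality, had 0 of 9 past the threshold in each comparison between populations.

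Loss of Itgb7 was then compared within each population. In GFP-high cells, G2 and mitosis genes were higher in KO than in WT mice in value almost without exception, but none passed edgeR's adjusted threshold. The count was 0 of 51, as it was for all 11745 genes tested (0%). By value, 50 of 51 genes had a log2 fold change above 0 (51.4% of all genes), with a median of 0.40, or 1.32-fold, against 0.01 for all genes. At an unadjusted p under 0.05, 45 of 51 were higher in KO (4.81% of all genes) and 0 were lower. In 13 of 51, every KO library lay above every WT library in CPM (0.947% of the 11295 genes tested here that both tables hold). DESeq2, run as an alternative, called 19 of 51 higher at an adjusted p under 0.05 (0.426% of all genes), 4 of them cyclins, kinases and regulators, 1 kinetochore gene, 8 spindle genes, 4 of cytokinesis and 2 of chromosome structure. The summed level was 5212 ± 516 CPM in KO and 4081 ± 470 CPM in WT GFP-high cells (SD, n = 5 each), and the ranges overlapped only between KO mouse 5 and WT mouse 3.

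**Figure D3:**
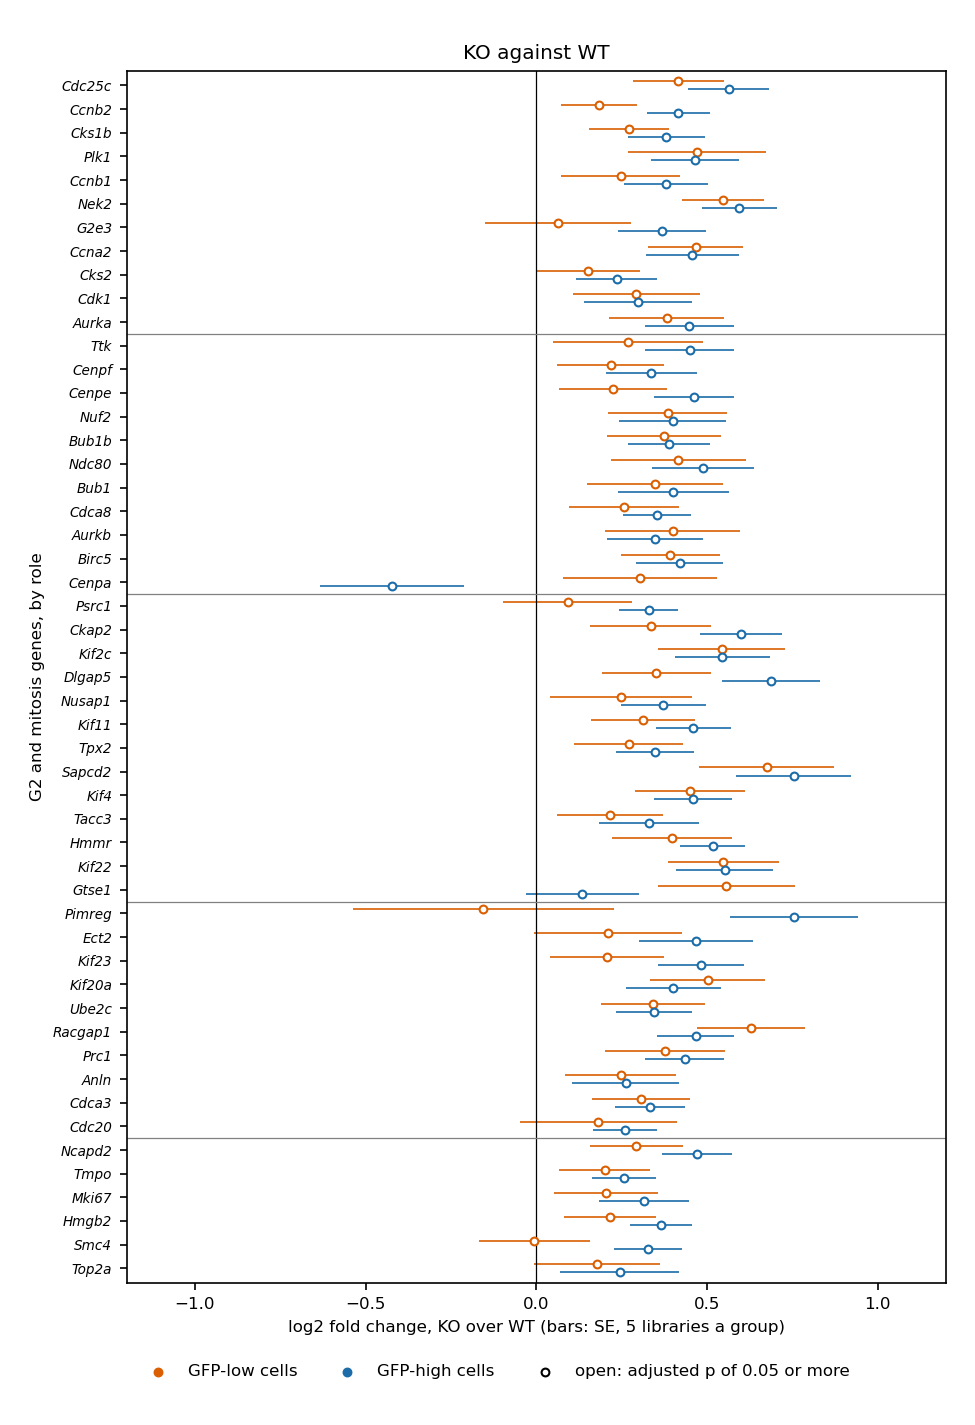
Points are log2 fold changes of KO over WT for each of the 51 genes in GFP-low cells (orange, upper point) and GFP-high cells (blue, lower point), with SE bars from 5 libraries a group; all are open because none passed edgeR's adjusted threshold. In GFP-high cells 50 of 51 points lie right of 0 and Cenpa lies left of it, and in GFP-low cells 49 of 51 lie right of 0.

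Hmmr, a spindle assembly protein also known as a hyaluronan receptor, had the smallest p of the 51. It had 65.5, 64.8, 69.4, 59.8 and 59.8 CPM in KO GFP-high cells, against 44.3, 54.5, 38.8, 45.5 and 40.8 CPM in WT GFP-high cells. The groups did not overlap, and the log2 fold change was 0.52 ± 0.10 (adjusted p = 0.163, edgeR; adjusted p = 0.00172, DESeq2). In GFP-low cells Hmmr had 48.6, 35.96, 43.1, 43.6 and 53.1 CPM in KO, against 26.95, 48.5, 28.5, 39.9 and 26.3 CPM in WT mice, and the groups overlapped (0.40 ± 0.18, adjusted p = 0.782, edgeR).

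Nek2, a kinase that parts the centrosomes before mitosis, stood out in both populations. It had 44.2, 35.8, 40.2, 39.01 and 40.3 CPM in KO GFP-high cells, against 29.01, 31.7, 25.3, 25.8 and 20.8 CPM in WT GFP-high cells. In GFP-low cells it had 31.2, 23.7, 24.1, 28.3 and 27.7 CPM in KO, against 22.3, 17.4, 16.8, 18.9 and 16.8 CPM in WT mice. In each population all KO libraries lay above all WT libraries. The log2 fold change was 0.60 ± 0.11 in GFP-high cells (adjusted p = 0.163, edgeR; 0.00132, DESeq2) and 0.55 ± 0.12 in GFP-low cells (adjusted p = 0.49, edgeR), the smallest p of the 51 there.

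Dlgap5 (HURP), which bundles kinetochore fibres, had 31.03, 18.2, 28.2, 23.8 and 24.3 CPM in KO GFP-high cells, against 17.7, 17.7, 13.9, 15.7 and 13.1 CPM in WT GFP-high cells. In GFP-low cells it had 17.3, 10.8, 14.1, 12.02 and 15.8 CPM in KO, against 11.2, 12.4, 10.6, 12.3 and 8.21 CPM in WT mice. The GFP-high groups were separate, the GFP-low groups overlapped, and the log2 fold changes were 0.69 ± 0.14 and 0.35 ± 0.16 (adjusted p = 0.163 and 0.784, edgeR). Ckap2 was separate in GFP-high cells as well, at the values given above (0.60 ± 0.12, adjusted p = 0.163, edgeR). Cdc25c was separate in both populations, with log2 fold changes of 0.56 ± 0.12 in GFP-high and 0.42 ± 0.13 in GFP-low cells (adjusted p = 0.167 and 0.744, edgeR). DESeq2 called all of Dlgap5, Ckap2 and Cdc25c in GFP-high cells (adjusted p = 0.00418, 0.00418 and 0.00503).

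Cenpa was the exception again, the only member of the 51 with a value below 0 in GFP-high cells. Its log2 fold change there was -0.42 ± 0.21 (adjusted p = 0.548, edgeR) with overlapping groups. The smallest positive values were those of Gtse1 (0.13 ± 0.17), Cks2 (0.24 ± 0.12) and Top2a (0.24 ± 0.17).

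Within the role groups the median log2 fold changes in GFP-high cells were 0.42 for cyclins and kinases, 0.40 for kinetochore and checkpoint genes, 0.46 for spindle genes, 0.42 for anaphase and cytokinesis genes and 0.32 for chromosome structure genes. Unadjusted p values under 0.05 were held by 9 of 11, 10 of 11, 12 of 13, 9 of 10 and 5 of 6 of these genes. Leaving out any 1 of the 10 libraries kept the edgeR count at 0, with medians from 0.35 to 0.46. Markers of secretory cells differed in the same libraries: 6 of 12 goblet, 7 of 11 enteroendocrine and 6 of 9 tuft markers were lower in KO GFP-high cells at an unadjusted p under 0.05 (4.98% of all genes), with median log2 fold changes of -0.57, -0.94 and -1.05. Summed enteroendocrine markers ran from 144 to 231 CPM in KO GFP-high libraries, against 144 to 626 CPM in WT GFP-high libraries. Summed tuft markers ran from 11.0 to 19.4 CPM in KO, against 15.3 to 35.2 CPM in WT GFP-high libraries, and goblet markers from 2595 to 4925 CPM in KO, against 2466 to 6229 CPM in WT. Paneth markers had 0 of 15 at an unadjusted p under 0.05 in either direction (median -0.17). Of 18 leukocyte markers, 8 were in the GFP-high table and 7 in both, and the defining genes Ptprc (CD45), Cd3e and Cd3d were in neither. In KO GFP-high cells 7 of these 8 had values above 0 (median 0.66), with Nkg7 and Gzmb, genes of cytotoxic granules, at 1.28 ± 0.60 and 1.03 ± 0.66, and 1 of 8, the T cell kinase gene Lck, was higher at an unadjusted p under 0.05 (0.32 ± 0.14). Summed over the 7 held by both tables, leukocyte markers ran from 29.6 to 66.2 CPM in KO, against 19.4 to 49.8 CPM in WT GFP-high libraries. The 7 include Lyz2, which is also on the Paneth list. The part of these marker lists in the mitotic values was not tested. Summed stem cell markers ran from 5187 to 6113 CPM in KO, against 4885 to 6548 CPM in WT GFP-high libraries.

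In GFP-low cells the members were again mostly higher in KO in value, and none passed. The edgeR count was 0 of 51 and that of DESeq2 0 of 51, where edgeR called 0.00849% of 11778 genes, 1 gene and lower in KO. By value, 49 of 51 genes were above 0 (49.2% of all genes), with a median of 0.30, against -0.00 for all genes. At an unadjusted p under 0.05, 19 of 51 were higher (2.93% of all genes) and 0 lower. That count was 10 without the KO library of mouse 2, and 11 without KO mouse 6, WT mouse 6 or WT mouse 8. It was 8 without both WT libraries of mice 3 and 8, and 30 when scaled by library totals alone, where the median of all genes was 0.14. Shares of all genes at that level were not computed for these other settings, so their counts cannot be set against them. In 5 of 51 all KO libraries lay above all WT libraries (0.708% of the genes that both tables hold). The summed level was 3463 ± 552 CPM in KO and 2824 ± 423 CPM in WT GFP-low cells (SD, n = 5 each), with overlapping ranges.

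Racgap1, the GTPase-activating part of centralspindlin at the spindle midzone, had 65.1, 44.03, 46.2, 44.7 and 60.3 CPM in KO GFP-low cells, against 40.03, 34.8, 28.9, 39.3 and 24.98 CPM in WT GFP-low cells. In GFP-high cells it had 99.00, 69.4, 85.7, 74.6 and 79.6 CPM in KO, against 69.4, 64.6, 53.9, 58.6 and 49.6 CPM in WT mice. The GFP-low groups did not overlap and the GFP-high groups met at 69.4 CPM. The log2 fold changes were 0.63 ± 0.16 and 0.47 ± 0.11 (adjusted p = 0.731 and 0.184, edgeR). Sapcd2, a regulator of spindle orientation, had 14.5, 8.20, 11.4, 17.5 and 14.6 CPM in KO GFP-low cells, against 9.88, 8.05, 9.71, 7.23 and 6.58 CPM in WT GFP-low cells. In GFP-high cells it had 27.1, 17.8, 25.6, 16.6 and 16.9 CPM in KO, against 15.4, 12.5, 13.1, 10.3 and 10.6 CPM in WT mice. The KO library of mouse 3 lay within the WT range in GFP-low cells, while the GFP-high groups were separate. The log2 fold changes were 0.68 ± 0.20 and 0.75 ± 0.17 (adjusted p = 0.744 and 0.167, edgeR).

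Kif22, a chromosome-bound kinesin, had 73.8, 64.6, 67.4, 66.00 and 80.03 CPM in KO GFP-low cells, against 52.8, 55.8, 35.4, 62.3 and 34.3 CPM in WT GFP-low cells. In GFP-high cells it had 111, 107, 92.99, 89.4 and 94.97 CPM in KO, against 70.1, 90.1, 52.01, 75.7 and 50.7 CPM in WT mice. The GFP-low groups were separate, and in GFP-high cells KO mouse 5 lay just under WT mouse 3. The log2 fold change was 0.55 ± 0.16 in GFP-low and 0.55 ± 0.14 in GFP-high cells (adjusted p = 0.744 and 0.187, edgeR). Ccna2, the A-type cyclin of S phase and G2, had 64.7, 40.7, 40.6, 47.5 and 56.7 CPM in KO GFP-low cells, against 40.2, 33.9, 35.4, 39.4 and 31.98 CPM in WT GFP-low cells. In GFP-high cells it had 93.5, 61.02, 80.6, 66.4 and 58.5 CPM in KO, against 61.7, 55.3, 44.4, 55.99 and 45.6 CPM in WT mice. KO mouse 4 and WT mouse 1 nearly met in GFP-low cells, and the GFP-high groups overlapped. The log2 fold change was 0.47 ± 0.14 in GFP-low and 0.46 ± 0.14 in GFP-high cells (adjusted p = 0.744 and 0.247, edgeR).

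Pimreg and Smc4 were the members with values below 0 in GFP-low cells, at -0.16 ± 0.38 and -0.01 ± 0.16. Differentiated cell markers differed here too: 8 of 16 enterocyte markers were lower in KO at an unadjusted p under 0.05 (3.39% of all genes), and so were 7 of 18 stem cell markers and 2 of 15 Paneth markers. Paneth markers had 14 of 15 values below 0, with a median of -0.74, and their sums ran from 27151 to 136875 CPM in KO, against 65900.2 to 287393 CPM in WT GFP-low libraries, the highest of these in mice 3 and 8. Leukocyte markers had 0 of 7 at an unadjusted p under 0.05 (median 0.14), and their sums ran from 27.7 to 71.8 CPM in KO, against 37.5 to 83.03 CPM in WT GFP-low libraries. Lyz2 (-0.74 ± 0.39), counted in these sums, is also on the Paneth list. Of the other leukocyte markers tested, only Cd68 was below 0 (-0.05 ± 0.29). Summed enterocyte markers, 14 of them held by both tables, ran from 1885 to 3025 CPM in KO, against 2538 to 4421 CPM in WT GFP-low libraries. Summed stem cell markers ran from 986 to 1490 CPM in KO, against 1034 to 1516 CPM in WT GFP-low libraries. Their part in the values above was not tested.

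**Figure D4:**
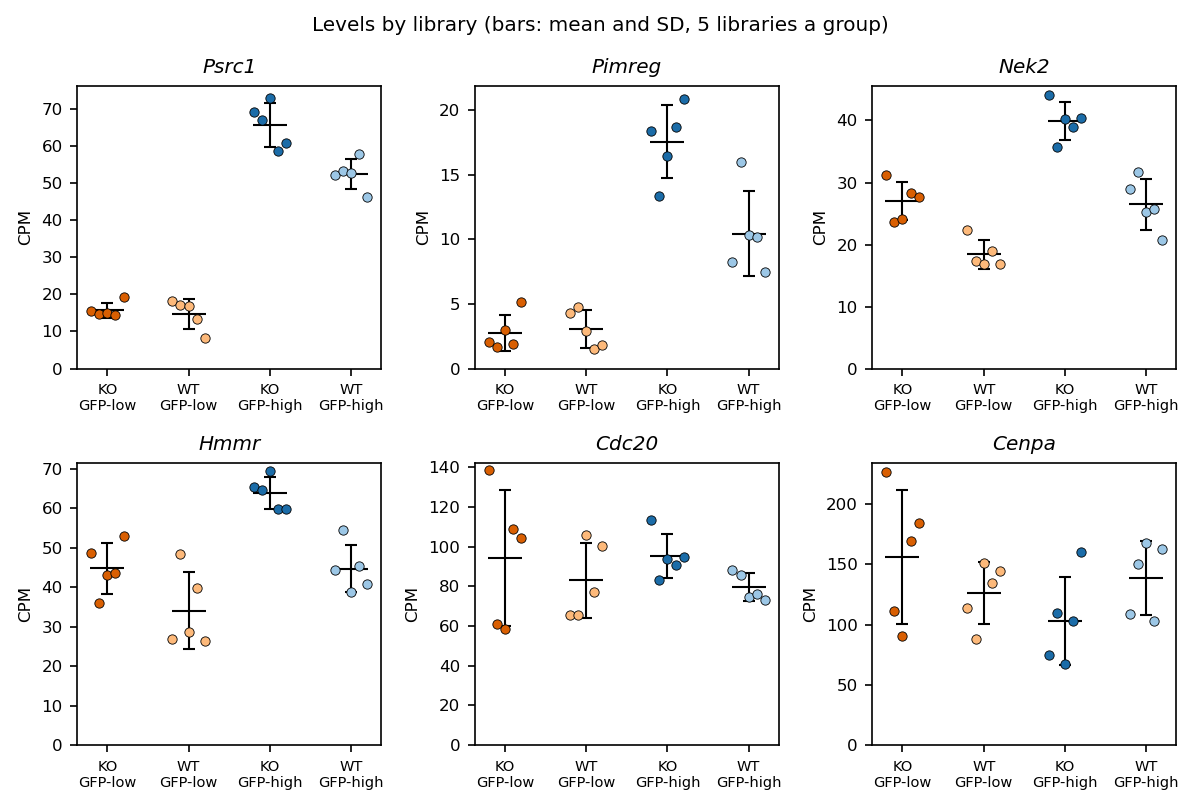
CPM of 6 G2 and mitosis genes in each library, with mean and SD of 5 libraries a group, in KO GFP-low, WT GFP-low, KO GFP-high and WT GFP-high cells. Psrc1 and Pimreg are far lower in GFP-low cells, Nek2 is higher in KO in both populations without overlap, and Cdc20 and Cenpa overlap between the populations.

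The difference between the populations in the KO effect was tested as an interaction over all 20 libraries. No gene of the 51 passed (0 of 11296 genes, 0%), by edgeR or by DESeq2. At an unadjusted p under 0.05, 1 member was higher (1.44% of all genes) and 1 lower (1.68%). The median was -0.07, against 0.00 for all genes, and 0.05, against 0.11 for all genes, when scaled by library totals alone. Cenpa had the smallest p, with the KO effect higher in GFP-low than in GFP-high cells by 0.73 ± 0.34 on the log2 scale (adjusted p = 0.9999, edgeR). Pimreg followed with -0.91 ± 0.43 and Smc4 with -0.33 ± 0.20, both with the same adjusted p. For Pimreg, GFP-low libraries averaged 2.75 ± 1.41 CPM in KO, against 3.07 ± 1.46 CPM in WT, while GFP-high libraries averaged 17.6 ± 2.81 CPM in KO, against 10.4 ± 3.32 CPM in WT (SD, n = 5 each). The median SE of the 51 interaction terms was 0.22.

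Genes of neighbouring lists were read beside the members and beside the share of all genes called lower in GFP-low cells, 24.4% in KO and 21.4% in WT mice. Of 88 further G2 and mitosis genes, 69 fell and 1 rose in GFP-low cells of KO mice (median -0.63), and 61 fell and 1 rose in WT mice (median -0.54). The riser was Kpna2, a nuclear import receptor (0.91 ± 0.12 in KO and 0.82 ± 0.15 in WT mice). The smallest p values in KO mice were those of the microtubule destabiliser Stmn1 (-1.31 ± 0.10), the cytokinesis kinase Cit (-1.34 ± 0.13) and the chromatin protein Cdca2 (-0.87 ± 0.10). Set against WT, KO GFP-high cells had 47 of the 88 higher at an unadjusted p under 0.05 (4.81% of all genes) and 0 lower (median 0.30), and DESeq2 called 6 (0.426% of all genes). In GFP-low cells 17 were higher (2.93% of all genes) and 0 lower (median 0.17).

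S phase genes fell in GFP-low cells as the members did, 33 of 46 in KO (median -0.49) and 36 of 46 in WT mice (median -0.60), beside the shares of 24.4% and 21.4% of all genes. The replication-linked chromatin protein gene Cdca7 (-1.87 ± 0.11 in KO) and the primase gene Prim1 (-0.85 ± 0.12) were among those with the smallest p in KO mice. Cdca7 is also on the stem cell marker list. Rrm2, a ribonucleotide reductase subunit, rose in KO mice (0.45 ± 0.14). Between KO and WT GFP-high cells, however, the S phase median was -0.00. There 1 was higher and 2 lower at an unadjusted p under 0.05, against 45 higher and 0 lower of the 51 G2 and mitosis genes. Summed S phase levels ran from 2816 to 3234 CPM in KO, against 2678 to 3400 CPM in WT GFP-high libraries, where those of the members ran from 4682 to 5963 CPM in KO, against 3590 to 4702 CPM in WT. The difference between the lists was not tested.

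The list of 17 APC/C genes held subunits and also Fzr1, Ube2s and Fbxo5, which are not core subunits and were not called. Of the 17, 4 fell in GFP-low cells in each genotype, near the share of all genes called lower (24.4% in KO and 21.4% in WT mice). The medians of the list were -0.12 in KO and -0.18 in WT mice. Those that fell included Cdc16 (-0.45 ± 0.10 in KO) and Cdc23 (-0.36 ± 0.10) in both genotypes and Cdc26 in KO mice (-0.32 ± 0.08). In KO against WT their medians were 0.16 in GFP-low and 0.06 in GFP-high cells. Of 24 transcriptional regulators of these genes, 6 fell and 2 rose in KO and 9 fell and 2 rose in WT mice, where all genes were called lower at the shares just given and higher in 26.2% in KO and 22.0% in WT mice. The share of regulators that fell in KO mice was near that of all genes. Foxm1, the forkhead factor of G2 genes, fell in both (-0.60 ± 0.16 in KO, -0.61 ± 0.18 in WT). Mybl2, the B-Myb factor, fell in WT (-0.48 ± 0.17) and did not pass in KO mice (-0.32 ± 0.20). E2f2 (1.69 ± 0.16 in KO) and Rb1 (1.52 ± 0.19), a factor and a pocket protein of the E2F pathway, rose in both genotypes, and Trp53, the gene of p53, fell in both (-0.81 ± 0.09 in KO). None of the 24 was higher or lower in KO GFP-high cells at an unadjusted p under 0.05, and Foxm1 had a value of 0.23 ± 0.15 there (adjusted p = 0.665, edgeR).

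**Figure D5:**
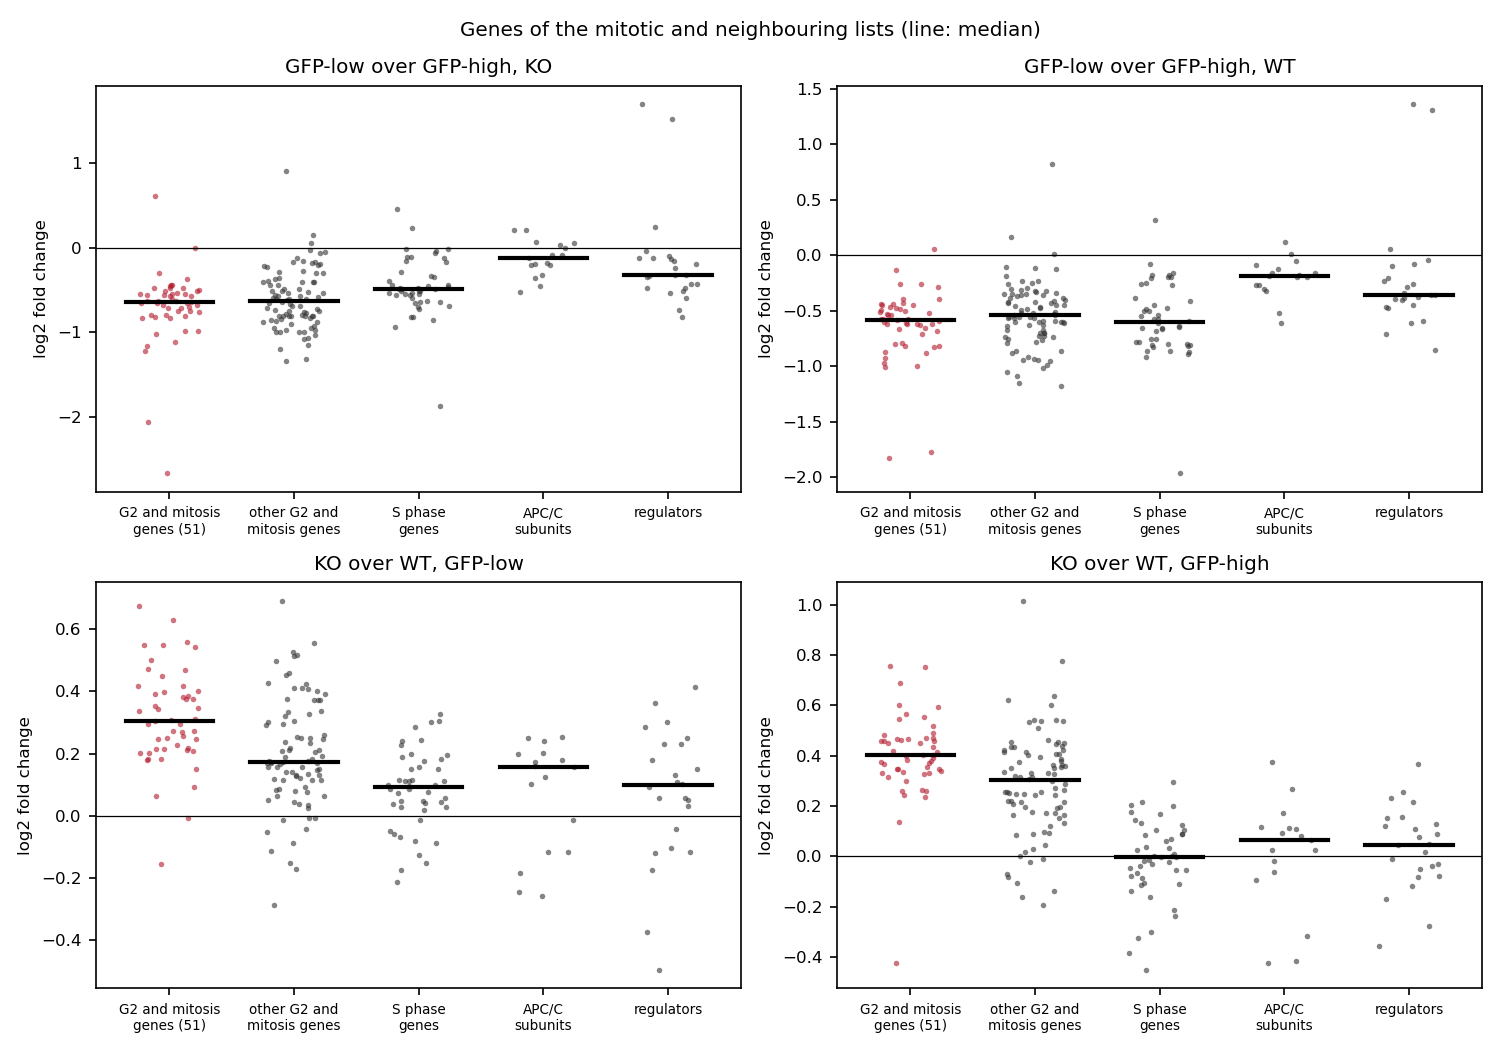
Each point is the log2 fold change of 1 gene in the comparison named above its panel, for the 51 G2 and mitosis genes (red) and 4 neighbouring lists (grey), with the median as a line. In KO over WT of GFP-high cells the medians are 0.40 for the members, 0.30 for other G2 and mitosis genes and -0.00 for S phase genes.

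Exons of 16 of the 51 genes overlap exons of another gene, 14 of them of a gene on the other strand. The largest overlap was 29.3% of exon length, between Kif20a and Cdc23. Strand of the libraries is not given in the sources used here, so reads of such partners cannot be told apart. Genes described above that overlap a gene on the other strand include Ube2c (22.8% of exon length), Cdc25c (12.7%), Ccna2 (12.5%) and Tacc3 (8.14%). Nek2 (6.6%), Cdca8 (4.48%) and Cdc20 (2.84%) do so as well. Psrc1, Pimreg, Ckap2 and Cenpa have no such overlap.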

How the data were processed

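RNA sequencing of the 20 libraries reached GEO as 2 tables, 1 for GFP-high and 1 for GFP-low cells, in which the authors deposited expected counts per gene without normalization. Per the submitters' processing notes, TopHat2, Bowtie2, RSEM and build mm10 were used. No version or role of these tools is given in the sources used here. The tables held 11746 and 11779 entries with lowest mean counts of 17.0 and 16.8, and genes below such means were not analysed here. A share of 13.7% of values in each table was not whole, and all were rounded.

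Tests used edgeR 4.0.16 (quasi-likelihood, TMM, filterByExpr with a minimum count of 10, Benjamini-Hochberg over all genes, threshold 0.05) in R 4.3.3, with no block. Each table gave its own KO against WT test, and GFP-low was set against GFP-high on the genes held by both tables, which the authors deposited separately. DESeq2 1.42.0, other scalings, no filter, a block by replicate number and the omission of each library were alternatives. The code was tested on simulated data. SE are from the F statistic. CPM were scaled over the 20 libraries. Exon lengths and overlaps came from GENCODE M21.

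The members, role groups and neighbouring lists were chosen with earlier results of these data known. Values in every library are given for 25 members. These are the most abundant of each role group, its 2 with the smallest p between populations in KO mice, the 5 with the smallest p for KO against WT in each population, the 3 with the smallest p for the interaction, and those passing between populations in neither genotype. Of neighbouring cell cycle lists, the 3 genes with the smallest p between populations in KO mice, Foxm1, Mybl2 and some risers, the last chosen after their values were seen, are named; 1 gene under this rule is not reported here. Cell type marker lists are given by counts and sums.

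Libraries with the same number within a genotype deviated together from their group means, with correlations over genes of 0.20 to 0.44 in KO and 0.17 to 0.63 in WT mice, and each GFP-high library correlated best with its own number. They were taken as pairs. Across genotypes the shared numbers 3 and 6 did not pair (-0.10 to -0.08). All libraries differed from each other, with a chi-square per gene of at least 18.9 between those of a group.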

Additional observations from a re-analysis of the deposited data

Results flagged for a closer look

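In 6 of 208 groups of 5 libraries, over the members and 1 summed value a group, 1 library lay far from the other 4. Chance alone marks about 1 in 20 groups. Plk1 had 183 CPM in the KO GFP-high library of mouse 2, where the next highest had 148 CPM, and Kif2c had 50.7 CPM in the same library, where the next had 37.4 CPM. Ccnb2 had 184 CPM in the KO GFP-high library of mouse 4, where the next had 164 CPM. Psrc1 had 19.2 CPM in the KO GFP-low library of mouse 6, where the next had 15.4 CPM. Ttk had 7.53 CPM in the WT GFP-low library of mouse 7, where the next had 5.36 CPM. Kif20a had 28.1 CPM in the WT GFP-high library of mouse 8, the lowest of its group, where the next lowest had 42.6 CPM. None of these was tested further.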

How the results depend on the processing

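Of 4947 values of members recomputed under other settings, 0 that had passed changed sign. KO against WT in GFP-high cells was the comparison whose count of calls moved by over 1.5 times: DESeq2 called 19 of the 51 members and edgeR 0. Between populations the count ran from 33 to 49 in WT mice, against 39 as reported, and from 47 to 50 in KO mice, against 47, over the settings other than leaving out 1 library. Scaling by library totals alone moved the median between populations to -0.90 in KO and -0.94 in WT mice, with 49 members lower in each, against a shift of all genes of -0.27 and -0.37. Of all genes, 6516 of 11294 in KO and 6083 of 11293 in WT mice passed with that scaling, in either direction. Leaving out 1 library at a time gave 46 to 48 calls (medians -0.72 to -0.58) between populations in KO mice and 35 to 46 (-0.65 to -0.50) in WT mice. It gave 0 calls between KO and WT in GFP-high cells (0.35 to 0.46), in GFP-low cells (0.23 to 0.40) and for the interaction (-0.15 to -0.01). With the replicate block, 50 members passed between populations in KO and 47 in WT mice, and 0 in the interaction. A block by replicate number was also run for KO against WT. Only the 2 numbers that the genotypes share, which do not pair, inform the genotype difference in that fit. It called 0 members in both populations, where 122 of 11745 genes passed in GFP-high and 36 of 11778 in GFP-low cells. At an unadjusted p under 0.05 it had 21 members in GFP-high and 13 in GFP-low cells. The share of all genes at that level in this fit was not computed, so these counts cannot be set against it. Leaving out the WT GFP-low libraries of mice 3 and 8, a choice made after seeing the data, gave 33 calls in WT mice (median -0.55), with 7 lost and 1 gained, and 0 for KO against WT in GFP-low cells (0.24) and for the interaction (-0.10). Of all genes, 3637 of 11296 then passed between populations in WT mice, in either direction. With 5 libraries a group, the median SE of KO against WT was 0.13 in GFP-high cells and 0.17 in GFP-low cells, which limits the size of difference that can pass.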
